A study of Mus musculus with 8 samples.

Results

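The solute carriers described here are 54 of the 24421 genes counted in 8 nanopore RNA-seq libraries of mouse embryonic stem cells (ESCs). Members were selected on their reads: every gene symbol of the form Slc followed by a family number and a letter was taken if its raw read counts summed to at least 200 over the 8 libraries. Of 373 symbols with that form, 313 were under the minimum, 64 of them with no read at all, and 6 were left out by name (Slc2a1, Slc2a3, Slc16a1, Slc16a3, Slc22a18 and Slc38a4). Just inside the minimum were Slc4a1ap with 200 reads, Slc37a3 with 208, Slc25a10 and Slc6a8 with 209 each and Slc30a7 with 210. Just outside it were Slc11a2 with 199 reads, Slc30a9 with 197, Slc35f2 with 196, Slc25a36 with 181 and Slc4a5 with 180. The levels of the members are therefore a description, and 4 of the 54 carry an Slc symbol without being carriers themselves (Slc9a3r1, Slc9a3r2, Slc7a6os and Slc4a1ap).

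R1 ESCs, an established mouse line, were sequenced before differentiation (Undiff) and as embryoid bodies (Day4), which according to the methods had first spent 4 days in suspension without leukaemia inhibitory factor and then 4 days with retinoic acid (RA) at 2 µM. Day4 against Undiff therefore covers the formation of embryoid bodies and the loss of this factor as well as RA, and these cannot be told apart. One protocol text of the labels gives the RA concentration in mM, and the tissue label reads embryoid bodies for every library, whereas the study's methods describe Undiff as ESCs maintained with leukaemia inhibitory factor. Polyadenylated RNA was sequenced with 2 Oxford Nanopore kits, called platforms here: Direct RNA, in which the RNA strand itself is read, and cDNA, in which the RNA is first copied and amplified by PCR. The methods describe 2 biological replicates of each state, grown and treated separately, whose RNA went to both kits, which gives 8 libraries in 4 groups. The 4 libraries of a state thus come from 2 cultures and not from 4, so a call with both kits rests on the same cultures, and the labels do not say which Direct RNA and cDNA libraries share one. All groups come from 1 cell line with no genetic change, and an embryoid body holds several cell types.

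Solute carriers are membrane proteins that move nutrients, metabolites, metals and inorganic ions across the plasma membrane or the membranes of organelles, one family number for each kind of related protein. Family 25 sits mainly in the inner mitochondrial membrane and exchanges nucleotides, phosphate and metabolites between the matrix and the cytosol. Cells that divide fast draw on amino acid carriers of the plasma membrane, among which the light chains of family 7 reach the surface bound to the heavy chain Slc3a2.

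By family, the 54 members comprised 15 mitochondrial carriers, 10 amino acid carriers, 9 carriers of metals, 9 of nucleotide sugars and nucleosides, 4 of inorganic ions, 2 of sugars, 1 of other organic solutes and the 4 that are not carriers. The members with the most reads were 2 mitochondrial adenine nucleotide carriers, Slc25a4 (ANT1) and Slc25a5 (ANT2), which both exchange ADP for ATP across the inner membrane. Their coding sequences have the same length of 897 bases and were identical at 695 of these positions, or 77.5%, so a long read that spans the coding region meets 202 differing bases. The 60 coding bases in which the pair differed most, 24 of them, lie in exon 2 of both genes and are shown to make visible what tells their reads apart. They start at coding position 397, at chr8:46209164-46209223 on the minus strand for Slc25a4 and at chrX:36797128-36797187 on the plus strand for Slc25a5 (GRCm38, GENCODE M21), and capitals mark the positions that differ.
Slc25a4 coding: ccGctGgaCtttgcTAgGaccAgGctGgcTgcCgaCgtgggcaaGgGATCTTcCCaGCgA
Slc25a5 coding: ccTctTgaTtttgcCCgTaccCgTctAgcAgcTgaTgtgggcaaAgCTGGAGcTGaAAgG

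The promoters of the pair are shown because the more abundant of their transcripts was Slc25a5 in Undiff and Slc25a4 at Day4. Each holds 250 bases before the annotated start and 50 after it, from RefSeq (GRCm38.p6), at chr8:46211013-46211312 on the minus strand for Slc25a4 and at chrX:36795347-36795646 on the plus strand for Slc25a5. Capitals mark matches to the letters of 4 motifs that were searched on both strands: CACGTG (E-box), AGGTCA (a nuclear receptor site), TGATGNAA (amino acid response element) and TGCGCNC or TGCACNC (metal response element).
Slc25a4 promoter: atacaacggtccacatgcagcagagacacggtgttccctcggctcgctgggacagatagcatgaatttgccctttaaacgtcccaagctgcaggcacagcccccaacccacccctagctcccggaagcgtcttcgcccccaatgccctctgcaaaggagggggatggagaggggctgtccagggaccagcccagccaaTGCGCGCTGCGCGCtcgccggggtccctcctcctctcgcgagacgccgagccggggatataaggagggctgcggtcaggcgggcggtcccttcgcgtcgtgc
Slc25a5 promoter: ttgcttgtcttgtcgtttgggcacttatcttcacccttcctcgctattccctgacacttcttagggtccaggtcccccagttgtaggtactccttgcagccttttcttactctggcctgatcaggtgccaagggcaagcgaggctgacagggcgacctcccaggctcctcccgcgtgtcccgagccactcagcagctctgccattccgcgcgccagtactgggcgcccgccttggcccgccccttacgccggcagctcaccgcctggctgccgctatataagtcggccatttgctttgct

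The Slc25a4 window held 2 adjacent matches to the metal response letters and the Slc25a5 window held none of the 4 motifs. RefSeq promoters were matched for 42 of the 54 members, 62 windows in all, and were compared with all 32851 windows of the table. The E-box letters stood in 14.5% of the member windows and in 7.15% of all windows, the nuclear receptor letters in 14.5% and 16.3%, the amino acid response letters in 4.84% and 3.97%, and the metal response letters in 38.7% and 25.7%. These are descriptions of letters in a window and say nothing of binding.

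Reads on genes ranged from 283461 to 907489 per library for Direct RNA and from 948657 to 2088592 for cDNA, so a count of 3 reads corresponded to 3.31 to 10.6 CPM, which is the count scaled to 1000000 reads on genes in each library, and to 1.44 to 3.16 CPM, respectively. Reads that htseq-count set aside as ambiguous made up 2.16% to 2.33% of gene and ambiguous reads for Direct RNA and 7.65% to 8.45% for cDNA. Of 6 markers of pluripotent cells (Pou5f1, Nanog, Sox2, Zfp42, Tdgf1 and Fgf4), 6 were lower at Day4 with both kits, and their summed level lay between 2734 and 5520 CPM in the 4 Undiff libraries and between 7.59 and 139.6 CPM in the 4 Day4 libraries. All 6 markers of the RA response were higher at Day4 with both kits. Markers of other cells moved with the state as well. The 6 primitive erythroid markers summed to at most 4.79 CPM in any Undiff library, with Hba-x, Hbb-y, Hbb-bh1 and Alas2 at 0 in all 4, and to between 532.4 and 3267 CPM at Day4. The 6 mesenchyme markers summed to at most 14.3 CPM in Undiff, and at Day4 to 1280 and 2960 CPM with Direct RNA and 226.8 and 260.4 CPM with cDNA. The 6 visceral endoderm markers summed to at most 28.5 CPM in Undiff and to between 191.2 and 335.1 CPM at Day4, whereas 6 neural markers, 1 of them called lower with each kit, summed to 82.2 to 180.8 CPM in Undiff and 21.2 to 37.2 CPM at Day4. Called higher at Day4 with Direct RNA and cDNA, respectively, were 4 and 4 of the erythroid, 5 and 4 of the mesenchyme and 4 and 2 of the endoderm markers. The part of these cells in any state difference below was not tested, and in such bulk libraries fewer cells of a type and less RNA per cell cannot be told apart.

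The members together took 0.780% and 0.815% of the reads on genes in the Undiff Direct RNA libraries, and 0.601% and 0.617% at Day4. With cDNA the shares were 0.688% and 0.848% in Undiff and 0.947% and 0.770% at Day4. The first pair of groups did not overlap and the second did. With only 2 libraries in each group, lack of overlap is common by chance alone. It is therefore given here and below as a description and not as a test. Wilson 95% intervals, which cover counting error only, ran from 0.751% to 0.810% for Undiff Direct RNA replicate 1 and from 0.835% to 0.860% for the deepest library, Undiff cDNA replicate 2. Slc25a3, Slc25a4 and Slc25a5 alone held 43.5% to 47.1% of the members' reads with Direct RNA and 62.1% to 75.1% with cDNA. Without these 3 genes, the summed level was 4291 ± 33.8 CPM (SD, n = 2) in Undiff and 3381 ± 23.7 CPM at Day4 with Direct RNA and lay at 2698 ± 124.5 and 2515 ± 221.1 CPM with cDNA, where the libraries of the states overlapped.

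**Figure D1:**
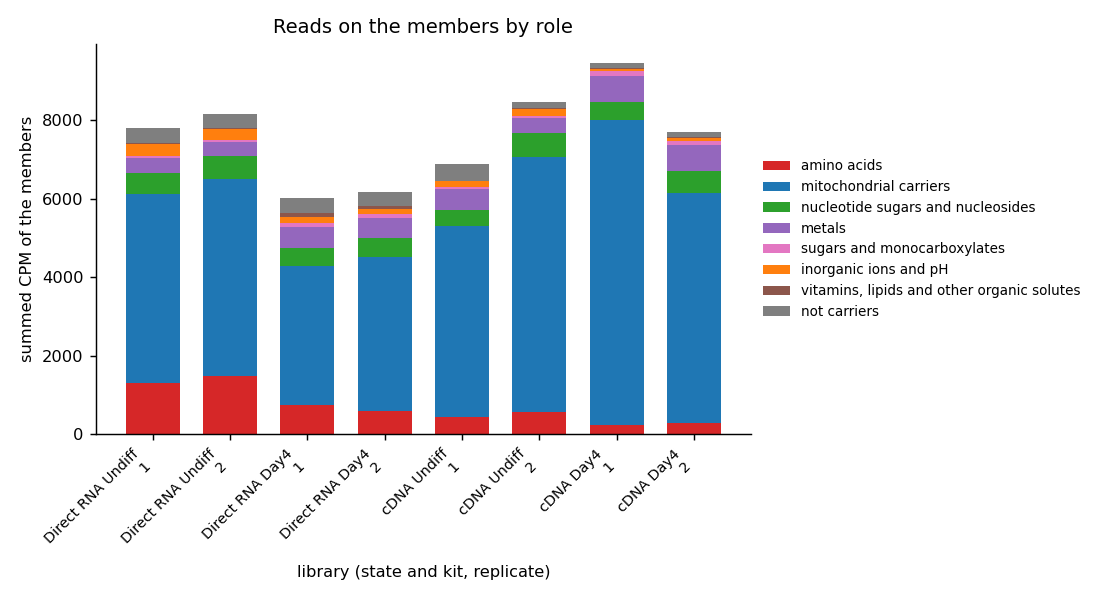
Stacked bars give the summed level of the 54 members in CPM for each of the 8 libraries, divided by the solute their family carries. Mitochondrial carriers took the largest part of every bar, from 3545 CPM in the Day4 Direct RNA replicate 1 to 7780 CPM in the Day4 cDNA replicate 1, and amino acid carriers were higher in the Undiff than in the Day4 bars of each kit.

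Per kilobase of the longest annotated transcript, the level averaged over the 8 libraries was highest for Slc25a5 at 1135 CPM per kb and Slc25a4 at 1060 CPM per kb. Next came Slc25a3, the mitochondrial phosphate carrier, at 225.7 CPM per kb, Slc25a39, which brings glutathione into mitochondria, at 158.5, the scaffold protein Slc9a3r1 at 84.0 and the citrate carrier Slc25a1 at 72.6. The first 4 held the first 4 places in each of the 4 groups, but the next places depended on the kit and the state: Slc25a1 stood at 113.9 CPM per kb in Undiff and 110.1 at Day4 with Direct RNA, in place 5 both times, and at 38.1 and 28.4 with cDNA, in places 12 and 16. Slc9a3r1 was in place 7 in both Direct RNA groups and in places 5 and 12 with cDNA. At the other end was Slc30a7, a zinc carrier of the Golgi, at 2.17 CPM per kb, with a longest transcript of 9020 bases. Reads and not bases were counted, so division by this length sets genes with a long annotated transcript lower. The longest transcript need not be the one that was read: that of Slc25a3 has 4039 bases in 2 exons. In unscaled mean CPM, Slc25a3 lay above Slc25a4 in Undiff with Direct RNA (1145 against 613.1) and below it in the other groups. Of the genes fixed for their role, 6 others lay under the read minimum and are named with their total reads only: the cystine carrier Slc7a11 with 5, the glutamine carrier Slc1a5 with 99, the zinc exporter Slc30a1 with 94, the Na-K-Cl cotransporter Slc12a2 with 99, the fatty acid carrier Slc27a1 with 127 and the choline carrier Slc44a1 with 66.

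The first comparison asked which members differed between Day4 and Undiff. It was made for each kit on its own with DESeq2, fitted over all genes, and a gene was called at a Benjamini-Hochberg adjusted p of at most 0.05, an absolute log2 fold change of at least 1 and a mean of at least 5 normalised counts. With Direct RNA, 2 members were higher at Day4 (3.7% of the 54) and 9 were lower (16.7%). Among all genes with at least 200 reads, 9.15% were higher and 10.3% lower, and among all genes with a mean of at least 5 the shares were 9.54% and 7.67%. With cDNA, 1 member was higher (1.85%) and 6 were lower (11.1%), against 10% and 11.2% of genes with at least 200 reads and 8.69% and 9.24% of genes with a mean of at least 5. The share of members lower was thus above the background for Direct RNA and close to it for cDNA, and the share higher was below it for both.

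Called with both kits were 1 member that rose, Slc39a6, and 5 that fell, Slc7a3, Slc9b1, Slc29a1, Slc25a5 and Slc3a2, where 6.93% of genes with at least 200 reads rose and 6.64% fell with both. A further 5 members were called with Direct RNA only (Slc38a2, Slc7a5, Slc7a7, Slc25a13 and Slc44a2) and 1 with cDNA only (Slc9a3r1), and 42 were called with neither. With edgeR's quasi-likelihood test under the same thresholds, 3 members rose and 13 fell with Direct RNA, where 15.1% and 17.4% of genes with at least 200 reads did, and 2 rose and 11 fell with cDNA, where 15.0% and 16.1% did. On GRCm38 (GENCODE M21), Slc7a3 lies at chrX:101079210-101086020, Slc9b1 at chr3:135348029-135397827, Slc29a1 at chr17:45585200-45599606, Slc3a2 at chr19:8706882-8723369, Slc25a5 at chrX:36795651-36798807 and Slc25a4 at chr8:46206797-46211284, all protein-coding. Over the 54 members the median log2 fold change was -0.26 with Direct RNA and -0.06 with cDNA, beside -0.12 and -0.10 over the genes with at least 200 reads. The sign was the same with both kits for 50 members and opposite for 4. DESeq2's size factors set the log2 ratio of Day4 to Undiff lower than the CPM do, by 0.10 for Direct RNA and by 0.33 for cDNA, and shrinkage of the fold changes adds a gap that differs by gene, so a fold change is not the log2 of the CPM ratio.

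**Figure D2:**
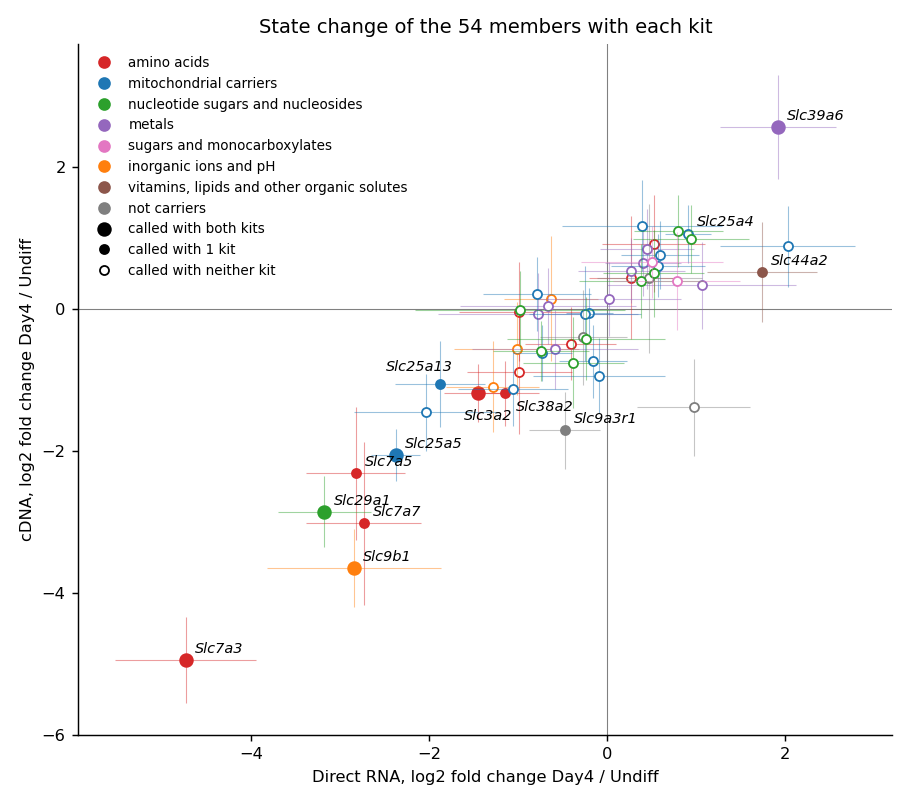
Each point is a member, placed by its DESeq2 log2 fold change of Day4 over Undiff with Direct RNA (horizontal) and cDNA (vertical), with standard errors as lines and colours for the solute carried. Large filled points were called with both kits, small filled points with 1 kit and open points with neither, and Slc7a3 at -4.74 and -4.95 lay farthest from the crowd.

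Amino acid carriers held the most calls: of 10 members, 5 fell with Direct RNA, 2 of them also with cDNA, and none rose, where 10.3% and 11.2% of genes with at least 200 reads fell. The 2 of 10 with cDNA are near that share, and no test was made of the group. Their summed level was 1311 and 1473 CPM in the Undiff Direct RNA libraries against 751.4 and 600.6 CPM at Day4. With cDNA it was 450.1 and 570.7 CPM in Undiff against 237.4 and 296.5 CPM at Day4. The states did not overlap with either kit. The median log2 fold change of the 10 was -1.07 with Direct RNA and -1.04 with cDNA, and 2 of the 10 lay above 0 with each kit.

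Slc7a3 (CAT3), which takes up arginine and lysine, was the member that fell most. Its level was 97.6 and 164.2 CPM in the Undiff Direct RNA libraries and 3.53 and 4.07 CPM at Day4, and 79.1 and 159.4 CPM in the Undiff cDNA libraries and 2.28 and 5.78 CPM at Day4. All 4 Undiff libraries lay far above all 4 Day4 libraries. The log2 fold change was -4.74 ± 0.79 (SE, adjusted p = 1.48e-07) with Direct RNA and -4.95 ± 0.61 (adjusted p = 1.53e-13) with cDNA. At Day4 only 4 Direct RNA reads remained against 183 in Undiff. The ratio of these pooled reads, each divided by the pooled reads on genes of both libraries of its state, was 37.2. Its exact 95% counting interval ran from 14.3 to 138.0. The fall was called in each of 10 alternative fits with either kit.

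Slc3a2 (4F2hc), the heavy chain that carries the family 7 light chains to the surface, fell less. It measured 287.0 and 292.0 CPM in Undiff and 98.8 and 122.0 CPM at Day4 with Direct RNA, and 182.4 and 167.1 CPM against 92.6 and 97.2 CPM with cDNA. The states did not overlap with either kit. Its log2 fold change was -1.45 ± 0.38 (adjusted p = 0.00256) with Direct RNA and -1.19 ± 0.41 (adjusted p = 0.0392) with cDNA. Leaving out 1 library leaves 1 in its group, which is then assumed to vary like the pair in the other group. Without any one of the 4 libraries the fold change lay between -1.24 and -1.61 for Direct RNA and between -1.06 and -1.32 for cDNA, and the call was lost (adjusted p from 0.0628 to 0.378 and from 0.225 to 0.526). On the CPM scale the cDNA change was -0.86 (adjusted p = 0.171).

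Of its 3 light chains among the members, Slc7a5 (LAT1), a carrier of leucine and other large neutral amino acids, fell from 146.4 and 158.7 CPM to 14.1 and 25.8 CPM with Direct RNA, a log2 fold change of -2.83 ± 0.56 (adjusted p = 1.83e-05). With cDNA it measured 13.7 and 13.4 CPM in Undiff and 0.759 and 4.81 CPM at Day4 (-2.32 ± 0.94, adjusted p = 0.0975), and edgeR called this change (-2.43, adjusted p = 0.00120). The Direct RNA call was lost without Undiff replicate 2 (-2.65, adjusted p = 0.102). Slc7a7 (y+LAT1), which exchanges cationic for neutral amino acids, fell from 103.3 and 168.6 CPM to 3.53 and 31.2 CPM with Direct RNA (-2.74 ± 0.65, adjusted p = 0.000586). Its cDNA counts were 30 reads in Undiff and 3 at Day4. Divided by the pooled reads on genes of each state, their ratio was 11.2 with an exact 95% interval from 3.48 to 57.2. DESeq2 did not call this cDNA change (adjusted p = 0.0676) and edgeR did (-3.56, adjusted p = 3.29e-04). The Direct RNA call was lost without Undiff replicate 1 (-2.49) or replicate 2 (-2.21), and over 10 alternative fits the change ranged from -4.39 to -2.04. Slc7a6 (y+LAT2), the light chain with the same exchange, was not called, at 91.8 and 34.2 CPM in Undiff and 123.5 and 69.1 CPM at Day4 with Direct RNA and at 10.5, 11.5, 27.3 and 26.5 CPM with cDNA. The light chains can also be set against the reads of Slc3a2, which itself fell, so that the ratio of a light chain that did not move would be higher at Day4. Per read of Slc3a2 there were 0.510 and 0.543 Slc7a5 reads, 0.360 and 0.577 Slc7a7 reads and 0.320 and 0.117 Slc7a6 reads in the Undiff Direct RNA libraries. At Day4 there were 0.143 and 0.211 for Slc7a5, 0.0357 and 0.256 for Slc7a7 and 1.25 and 0.567 for Slc7a6. With cDNA Slc7a5 stood at 0.0751 and 0.0802 in Undiff and 0.00820 and 0.0495 at Day4, Slc7a7 at 0.0289 and 0.0716 against 0.00820 and 0.00990, and Slc7a6 at 0.0578 and 0.0688 against 0.295 and 0.272. These ratios are a description, since 2 libraries against 2 cannot go below an exact permutation p of 0.33, and the level of Slc7a6 itself overlapped between the Direct RNA states.

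Slc38a2 (SNAT2), a sodium-coupled carrier of glutamine and other neutral amino acids, measured 249.7 and 310.7 CPM in Undiff and 127.0 and 141.0 CPM at Day4 with Direct RNA (-1.15 ± 0.38, adjusted p = 0.0256). With cDNA it measured 98.0 and 98.2 CPM against 41 and 65.5 CPM, a log2 fold change of the same size that missed the threshold (-1.19 ± 0.46, adjusted p = 0.0732) and that edgeR called (-1.19, adjusted p = 0.0294). Without any one library the Direct RNA change lay between -0.95 and -1.39 and the call was lost (adjusted p from 0.179 to 0.798). Its relative Slc38a1 (SNAT1) was not called, at -0.41 ± 0.51 with Direct RNA and -0.49 ± 0.51 with cDNA, and its libraries overlapped between the states with both kits. The creatine carrier Slc6a8 was not called either, at -0.99 ± 0.59 and -0.89 ± 0.88, except by edgeR with Direct RNA (-1.12, adjusted p = 0.0301), and was 77.5 and 93.7 CPM in Undiff against 67.0 and 28.5 CPM at Day4 with Direct RNA.

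Of 12 genes of the cellular amino acid response, a list kept for comparison because Slc3a2, Slc7a5 and Slc38a2 are known targets of its factor Atf4, 7 had at least 200 reads. Of these, 4 fell and 1 rose with Direct RNA, and 2 fell and 1 rose with cDNA, beside 10.3% and 9.15% of genes with at least 200 reads that fell and rose with Direct RNA and 11.2% and 10% with cDNA. Asns, which makes asparagine, fell with both kits (-1.55 ± 0.41 and -1.99 ± 0.43), as did Psat1 of serine synthesis (-2.0 ± 0.38 and -1.88 ± 0.43). Ddit4 rose with both (2.08 ± 0.33 and 1.34 ± 0.45). Atf4 itself was not called, at -0.49 ± 0.44 and -0.79 ± 0.41.

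**Figure D3:**
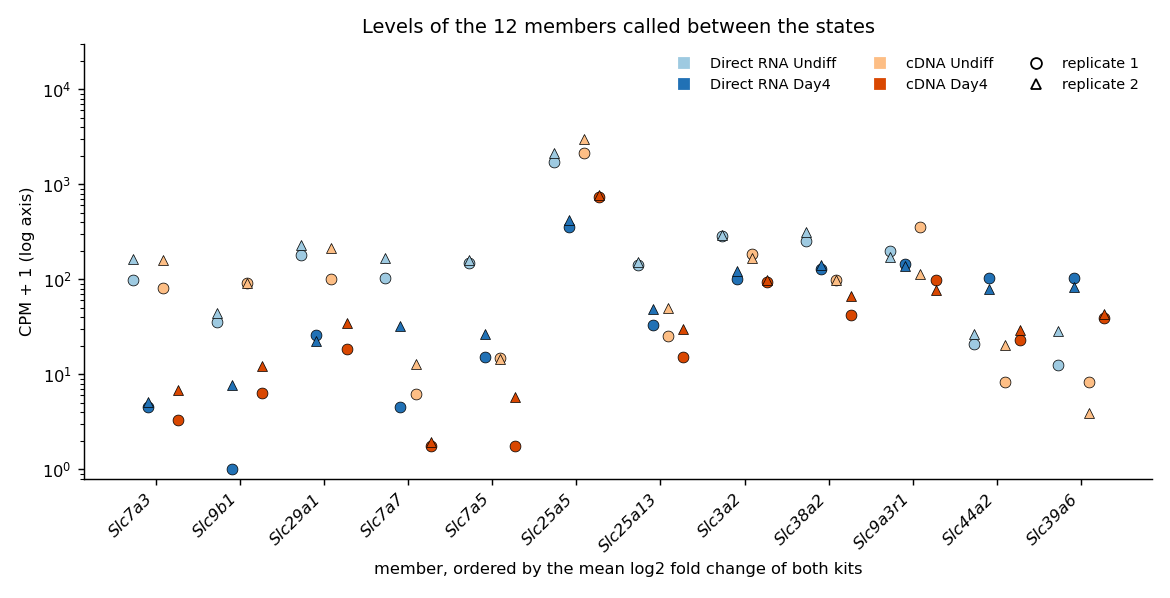
Levels of the 12 members called between the states with either kit, as CPM plus 1 on a log axis, with 1 point for each library, circles for replicate 1 and triangles for replicate 2. Points of Undiff lie above those of Day4 for Slc7a3, Slc9b1, Slc29a1 and Slc25a5 with both kits, and below them for Slc39a6.

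Among the 15 mitochondrial carriers, Slc25a5 fell with both kits and Slc25a13 with Direct RNA, and none rose under the thresholds. Slc25a5, the adenine nucleotide carrier with the most reads in Undiff, measured 1722 and 2129 CPM in Undiff and 356.3 and 424.4 CPM at Day4 with Direct RNA. With cDNA it measured 2150 and 2980 CPM against 727.5 and 769.7 CPM. The libraries of the states lay well apart. The log2 fold change was -2.38 ± 0.28 (adjusted p = 2.77e-15) and -2.06 ± 0.36 (adjusted p = 6.11e-07), and the call held in each of 11 alternative fits with either kit.

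Slc25a4, the carrier typical of heart and muscle, moved the other way. It measured 582.6 and 643.5 CPM in Undiff and 1249 and 1251 CPM at Day4 with Direct RNA, and 1530 and 1996 CPM against 5626 and 3454 CPM with cDNA. Every Day4 library lay above every Undiff library of its kit. With Direct RNA the log2 fold change was 0.91 ± 0.26 with an adjusted p of 0.0081, just under the fold threshold, and with cDNA 1.06 ± 0.41 with an adjusted p of 0.0731, so it was called with neither. With edgeR it was called with cDNA (1.10, adjusted p = 0.0183). With at least 10 reads in every library it was called with both kits, at 1.01 (adjusted p = 0.00533) and 1.17 (adjusted p = 0.0186). With the replicate block it was called with cDNA only (1.00, adjusted p = 0.0393). On the CPM scale, added after the data were seen, it was called with both, at 1.02 (adjusted p = 0.00140) and 1.34 (adjusted p = 0.00691).

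Within the pair, Slc25a4 took 25.3% and 23.2% of the reads in the Undiff Direct RNA libraries and 77.8% and 74.7% at Day4. With cDNA it took 41.6% and 40.1% in Undiff and 88.5% and 81.8% at Day4. The Wilson 95% intervals of these shares, from 803 to 10392 Undiff reads and 455 to 8774 Day4 reads of the pair, were all under 8 percentage points wide and none reached across the states. The group means were 24.2% ± 1.46 (SD, n = 2) and 76.2% ± 2.21 with Direct RNA and 40.8% ± 1.03 and 85.2% ± 4.79 with cDNA. In Undiff Slc25a5 was thus the more abundant of the pair with both kits, and at Day4 Slc25a4 was, which also holds per kilobase with Direct RNA (1553 against 318.5 CPM per kb in Undiff, 314.8 against 649.4 at Day4) and with cDNA (2069 against 915.6 and 603.7 against 2358). The summed level of the pair did not move alike: it was 2538 ± 331.0 CPM in Undiff and 1640 ± 49.9 CPM at Day4 with Direct RNA, and 4328 ± 916.2 and 5289 ± 1506 CPM with cDNA, where the libraries overlapped. The share is a ratio of 2 genes within a library, so library size does not enter it, but the kits gave different shares for the same state.

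**Figure D4:**
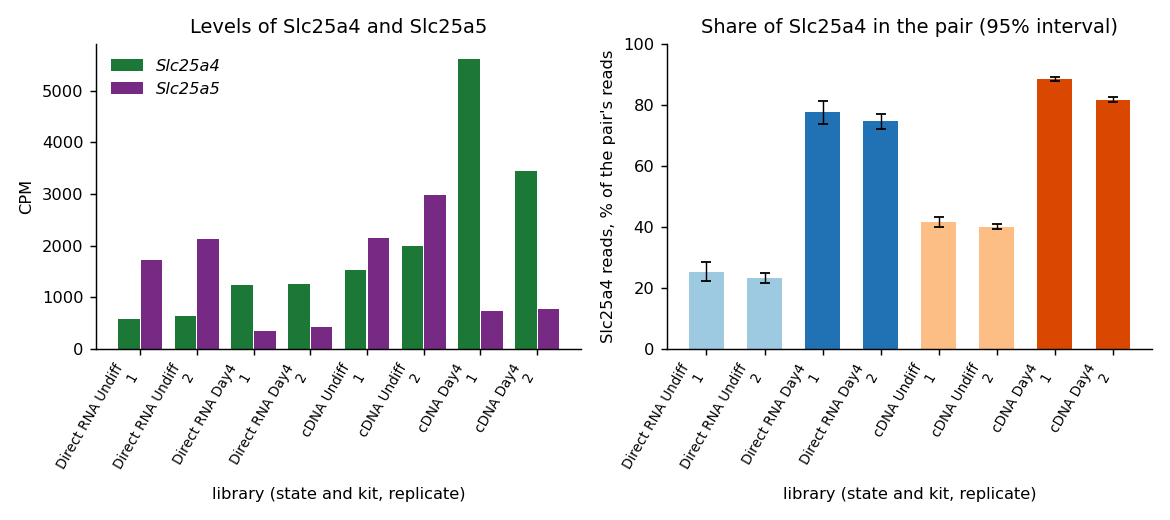
Left, bars of the level of Slc25a4 and Slc25a5 in CPM for each library, and right, the share of Slc25a4 in the reads of the pair with its Wilson 95% interval. The share lies between 23.2% and 41.6% in the 4 Undiff libraries and between 74.7% and 88.5% in the 4 Day4 libraries.

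Slc25a13 (citrin), an aspartate and glutamate carrier, fell from 140.6 and 152.1 CPM to 31.8 and 47.5 CPM with Direct RNA (-1.88 ± 0.51, adjusted p = 0.00387). With cDNA its libraries overlapped, at 24.2 and 49.3 CPM in Undiff and 14.4 and 28.9 CPM at Day4 (-1.06 ± 0.61, adjusted p = 0.34). Without any one library the Direct RNA change lay between -1.57 and -2.17 and was not called (adjusted p from 0.0837 to 0.453). The second aspartate and glutamate carrier, Slc25a12, was not called, at -1.06 ± 0.62 and -1.13 ± 0.52.

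No other mitochondrial carrier was called. Slc25a3, which brings phosphate into the matrix, measured between 1009 and 1228 CPM in the 4 Direct RNA libraries and overlapped between the states (-0.20 ± 0.26), and its cDNA change was -0.06 ± 0.36. Slc25a39 measured 444.8 and 393.4 CPM in Undiff and 218.7 and 311.8 CPM at Day4 with Direct RNA, without overlap (-0.73 ± 0.33, adjusted p = 0.163), and its cDNA libraries overlapped (-0.62 ± 0.39). For Slc25a1, which exports citrate, the libraries overlapped with both kits (-0.16 ± 0.38 and -0.74 ± 0.51). Slc25a11, the oxoglutarate carrier, measured 129.1 and 84.8 CPM in Undiff and 148.2 and 191.2 CPM at Day4 with Direct RNA, and 33.7 and 48.8 against 89.5 and 87.1 CPM with cDNA. Slc25a17, a family 25 carrier of the peroxisome membrane grouped here with the mitochondrial ones, measured 48.8 and 71.6 against 88.2 and 109.8 CPM with Direct RNA, and 53.8 and 74.7 against 108.5 and 140.6 CPM with cDNA. Neither overlapped between the states with either kit, which is common by chance with so few libraries and shows no change by itself. The log2 fold changes were 0.59 ± 0.44 and 0.76 ± 0.48 for Slc25a11 and 0.57 ± 0.53 and 0.61 ± 0.44 for Slc25a17. The dicarboxylate carrier Slc25a10, near the read minimum, had 0.39 ± 0.90 and 1.17 ± 0.64. Slc25a51, which brings NAD into mitochondria, had a log2 fold change of 2.03 ± 0.76 with Direct RNA, the highest of the members there, at an adjusted p of 0.0651, and 0.88 ± 0.57 with cDNA, but rested on 1 and 21 reads in the Undiff Direct RNA libraries. The ornithine carrier Slc25a15 had -2.04 ± 0.81 (adjusted p = 0.0883) and -1.46 ± 0.54 (adjusted p = 0.0566), and its states did not overlap with either kit.

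Of the 9 metal carriers, 1 rose with both kits and none fell with either. Among genes with at least 200 reads, 6.93% rose with both kits, and 10.3% and 11.2% fell with Direct RNA and cDNA, so these counts are near the background. The median log2 fold changes of the 9 were 0.27 and 0.33. Slc39a6 (ZIP6), a zinc importer of the plasma membrane, measured 11.5 and 27.5 CPM in Undiff and 102.3 and 82.7 CPM at Day4 with Direct RNA, and 7.38 and 2.87 CPM against 37.9 and 41.9 CPM with cDNA. The states did not overlap with either kit. DESeq2 gave a rise of 1.92 ± 0.65 (adjusted p = 0.0304) and 2.56 ± 0.73 (adjusted p = 0.0065). Without any one library the Direct RNA rise lay between 1.39 and 2.56 and was not called (adjusted p from 0.203 to 0.526). The cDNA call was lost without Undiff replicate 2 (1.84, adjusted p = 0.345), Day4 replicate 1 (2.31, adjusted p = 0.266) or Day4 replicate 2 (2.39, adjusted p = 0.322).

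The summed level of the metal carriers was 390.3 and 342.7 CPM in Undiff and 550.3 and 517.9 CPM at Day4 with Direct RNA, and 523.9 and 392.1 against 653.2 and 677.3 CPM with cDNA, without overlap. Slc39a10, a zinc importer related to Slc39a6, had 0.45 ± 0.53 and 0.84 ± 0.56, and Slc39a7, which releases zinc from the endoplasmic reticulum, 0.40 ± 0.43 and 0.64 ± 0.46, so neither was called. Exons of Slc39a7, whose 1196 reads are part of the summed level, overlap Gm20427 on the same strand over 2084 bases. Strand therefore does not tell reads of these genes apart with either kit. Slc39a1 (ZIP1), another zinc importer, stood apart between replicates. It measured 5.74 and 45.2 CPM in the Undiff Direct RNA libraries, 247.7 and 74.7 CPM in the Undiff cDNA libraries, 21.2 and 16.3 CPM at Day4 with Direct RNA and 169.9 and 98.7 CPM at Day4 with cDNA, and no direction can be read from it. The Golgi zinc carrier Slc30a7 had 1.06 ± 1.06 and 0.33 ± 0.61.

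Of 9 carriers of nucleotide sugars and nucleosides, 1 fell with both kits and none rose with either. Among genes with at least 200 reads, 6.64% fell with both kits, and 9.15% and 10% rose with Direct RNA and cDNA. These counts are thus near the background. Slc29a1 (ENT1), which equilibrates adenosine and other nucleosides across the plasma membrane, measured 180.8 and 230.3 CPM in Undiff and 24.7 and 21.7 CPM at Day4 with Direct RNA. With cDNA it measured 100.1 and 213.5 CPM against 17.4 and 33.7 CPM. The states lay apart with both kits, and the mean CPM was 8.86 and 6.13 times as high in Undiff. DESeq2 gave a log2 fold change of -3.18 ± 0.52 (adjusted p = 6.44e-08) and -2.86 ± 0.50 (adjusted p = 8.66e-07), called in each of 10 and 11 alternative fits. The other 8, which belong to family 35 of the Golgi and endoplasmic reticulum, were not called, and their log2 fold changes lay between -0.98 and 0.94 with Direct RNA and between -0.76 and 1.10 with cDNA.

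Among the 4 carriers of inorganic ions, Slc9b1, a sodium-proton exchanger known from sperm, fell with both kits, where 6.64% of genes with at least 200 reads did. It measured 34.4 and 43 CPM in Undiff and 0 and 6.78 CPM at Day4 with Direct RNA, and 90.7 and 90 CPM against 5.31 and 11.1 CPM with cDNA. The states did not overlap. The log2 fold change was -2.85 ± 0.98 (adjusted p = 0.0361) with Direct RNA and -3.65 ± 0.55 (adjusted p = 3.67e-09) with cDNA. Direct RNA counted 51 reads in Undiff and 5 at Day4. Divided by the pooled reads on genes of each state, these gave a ratio of 8.29 with an exact 95% interval from 3.33 to 26.6. Without any one library the Direct RNA change lay between -2.09 and -3.65 and was not called, whereas the cDNA call held in each of 10 alternative fits. The phosphate importers Slc20a1 and Slc20a2 were not called. Slc20a1 measured 109.1 and 126.7 CPM against 60 and 43.4 CPM with Direct RNA without overlap (-1.29 ± 0.52, adjusted p = 0.0885; edgeR called it at -1.36, adjusted p = 0.00378), and -1.10 ± 0.64 with cDNA, and Slc20a2 had -0.63 ± 0.53 and 0.14 ± 0.88.

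Slc44a2, a choline transporter-like protein, rose with Direct RNA from 20.1 and 25.3 CPM to 102.3 and 77.3 CPM (1.74 ± 0.62, adjusted p = 0.0452). With cDNA it measured 7.38 and 19.6 CPM in Undiff and 22.0 and 28.4 CPM at Day4 (0.52 ± 0.70, adjusted p = 0.844). The Direct RNA rise without any one library lay between 1.45 and 1.84 and was not called (adjusted p from 0.426 to 0.520). Neither sugar carrier was called: Slc50a1 (SWEET1) had 0.50 ± 0.80 and 0.66 ± 0.51, and Slc37a3, at the read minimum, 0.78 ± 0.71 and 0.39 ± 0.69.

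Of the 4 members that are not carriers, Slc9a3r1 (NHERF1), a PDZ scaffold under the plasma membrane, was the only one called. With cDNA it measured 357.3 and 111.6 CPM in Undiff and 97.9 and 77 CPM at Day4 (-1.71 ± 0.54, adjusted p = 0.018), and with Direct RNA 198.0 and 170.8 CPM against 144.6 and 136.9 CPM (-0.48 ± 0.40). The cDNA call rested on Undiff replicate 1: without it the change was -0.65 (adjusted p = 0.796). It was also lost without Day4 replicate 1 (-1.88, adjusted p = 0.103) or replicate 2 (-1.40, adjusted p = 0.418) and on the CPM scale (-1.38, adjusted p = 0.0626). Its paralog Slc9a3r2 (NHERF2) had 0.97 ± 0.64 and -1.39 ± 0.68, the latter called by edgeR (-1.42, adjusted p = 0.0307), Slc7a6os, a protein named for its place opposite Slc7a6, -0.27 ± 0.49 and -0.40 ± 0.67, and Slc4a1ap (kanadaptin) 0.47 ± 0.59 and 0.43 ± 1.05 with 0 and 25 reads in the Undiff cDNA libraries.

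Carriers that bear another symbol were followed from a list of 27 names, of which 24 were in the files and 11 had at least 200 reads. Tusc3, linked to magnesium transport, rose with both kits (1.26 ± 0.43 and 1.73 ± 0.46), and Mtch2 of the outer mitochondrial membrane fell with Direct RNA (-1.01 ± 0.34). Of 50 genes of the ABC superfamily, 11 had at least 200 reads, and none rose, where 9.15% and 10% of genes with at least 200 reads did, a share near 1 of 11. Among the 7 of these in families A to D and G, whose proteins sit in membranes and move substrates with ATP, 1 fell with Direct RNA and 2 with cDNA. Of genes with at least 200 reads, 10.3% and 11.2% fell with Direct RNA and cDNA, and no test was made of these small counts. The genes that fell were Abcb1b, a drug efflux pump, with both kits (-3.30 ± 1.04 and -3.70 ± 0.62) and Abcg1, a sterol exporter, with cDNA (-2.09 ± 0.48). The other 4 of the 11 belong to families E and F, which have no membrane domain, act at the ribosome and transport nothing. Of these, Abce1, Abcf1 and Abcf2 fell with Direct RNA (-1.09 ± 0.39, -1.24 ± 0.39 and -1.75 ± 0.39) and Abcf2 with cDNA (-1.55 ± 0.47).

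The second comparison asked whether the change between the states differed between the kits. In DESeq2's test of the interaction, 0 members passed an adjusted p of 0.05, and 0 did with edgeR, where 0.0339% of genes with at least 200 reads and 0.0192% of genes with a mean of at least 5 passed with DESeq2. One member had an unadjusted p under 0.05. That was Slc9a3r2, with an interaction (cDNA change minus Direct RNA change) of -2.51 ± 0.98 on the log2 scale, and the next lowest unadjusted p belonged to Slc9a3r1 (-1.32 ± 0.75) and Slc44a2 (-1.29 ± 0.92). All 3 had an adjusted p of 1. The members called with 1 kit only were therefore not shown to change differently with the other kit.

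The third comparison set the kits against each other in all 8 libraries together and took the state into account. With DESeq2, 17 members were higher with cDNA (31.5%) and 9 were lower (16.7%). Among genes with at least 200 reads, 36.9% were higher and 20.1% lower, and among genes with a mean of at least 5, 24.7% and 26.6%. The sum of reads that selected the members gives the deeper cDNA libraries more weight, so the genes under the same minimum are the nearer background, and the members lay close to it. The split depends on the scale: DESeq2's size factors set cDNA 0.75 higher on the log2 scale, relative to Direct RNA, than the CPM do, and with reads on genes as size factors 8 members were higher and 21 lower. The median log2 difference was 0.22 over the members and 0.51 over the genes with at least 200 reads.

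By role, 6 of 9 metal carriers, 5 of 15 mitochondrial carriers and 4 of 9 nucleotide sugar and nucleoside carriers were higher with cDNA. Among genes with at least 200 reads, 36.9% were higher and 20.1% lower, so the last 2 counts are near the background, and no test was made of a role. One mitochondrial carrier, Slc25a1, was lower (-1.02 ± 0.26, adjusted p = 4.67e-04). Its call was lost in 5 of 16 alternative fits, where the difference lay between -0.86 and -0.96, just under the fold threshold: with TMM factors, with edgeR, and without Direct RNA Day4 replicate 2, cDNA Undiff replicate 1 or cDNA Day4 replicate 1. Of the 10 amino acid carriers 5 were lower with cDNA and none higher. Slc39a1 had the largest difference towards cDNA, at 5.74 to 45.2 CPM with Direct RNA and 74.7 to 247.7 CPM with cDNA (log2 difference 3.33 ± 0.53, adjusted p = 2.97e-09). Slc35e2, an orphan of the nucleotide sugar family, measured 3.53 to 14.3 CPM with Direct RNA and 27.3 to 76.5 CPM with cDNA (3.01 ± 0.48, adjusted p = 4.1e-09). The libraries of the kits did not overlap for either gene.

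Slc25a4 was 582.6 to 1251 CPM with Direct RNA and 1530 to 5626 CPM with cDNA (2.44 ± 0.23, adjusted p = 1.04e-23), while Slc25a5 differed less (1.40 ± 0.18, adjusted p = 1.19e-13) and its call was lost on the CPM scale (0.66, adjusted p = 0.00358). The low-affinity copper protein Slc31a2 measured 3.53 to 20.1 CPM with Direct RNA and 24.9 to 41.1 CPM with cDNA (2.41 ± 0.46, adjusted p = 9.13e-07). Slc39a11, a zinc carrier, measured 7.06 to 28.7 CPM and 35 to 68.3 CPM (2.37 ± 0.44, adjusted p = 4.54e-07). Neither of these metal carriers overlapped between the kits.

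Of the 9 members lower with cDNA, 5 were carriers of amino acids. On DESeq2's scale Slc7a7 had the largest difference in this direction (-3.16 ± 0.54, adjusted p = 4.06e-08), though its Day4 Direct RNA libraries, at 3.53 and 31.2 CPM, overlapped with the Undiff cDNA libraries at 5.27 and 12 CPM. Slc38a10, a putative amino acid carrier, measured 95.9 to 176.4 CPM with Direct RNA and 5.27 to 13.0 CPM with cDNA (-2.94 ± 0.33, adjusted p = 1.47e-17), with no overlap. Slc7a5 was 10.6 times as high in mean CPM with Direct RNA (-2.44 ± 0.39, adjusted p = 3.73e-09). Slc6a8 measured 28.5 to 93.7 CPM with Direct RNA and 5.31 to 12.9 CPM with cDNA (-2.12 ± 0.39, adjusted p = 3.59e-07), and Slc20a2 61.0 to 123.4 CPM and 4.31 to 11.6 CPM (-2.30 ± 0.40, adjusted p = 1.19e-07), both without overlap. In mean CPM these differences exceeded that of Slc39a1, which was 6.69 times as high with cDNA: Slc7a7 was 16.2, Slc38a10 13.5, Slc20a2 8.69 and Slc6a8 8 times as high with Direct RNA. The 10 members named in this comparison for the largest differences were each called in all alternative fits that kept them, the CPM scale included.

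Transcript length and overlap with other genes are given beside the kit difference. The longest annotated transcript had a median of 2364 bases for the 17 members higher with cDNA, 3517 bases for the 9 lower and 3218.5 bases for the 28 not called. Across the 54 members Spearman's rho between this length and the log2 difference was -0.30, and across 5889 genes with at least 200 reads it was -0.26. These are correlations across genes, which share the 8 libraries and are not replicates. Exons of any annotated gene on the opposite strand overlapped 4 of the 9 members lower with cDNA, 4 of the 17 higher and 8 of the 28 not called. Where the partner was itself counted in the files, they overlapped 3 of the 9 members lower with cDNA, namely Slc7a7 (Oxa1l, 232 bases), Slc20a2 (Smim19, 95 bases) and Slc4a1ap (Supt7l, 63 bases). They overlapped 1 of the 17 higher (Slc35e2 with Gm16023, 540 bases) and 2 of the 28 not called (Slc25a11 with Rnf167 and Slc35a4 with Apbb3). The Direct RNA reads were counted by strand according to the methods and the setting for cDNA is not given there. If strand was not used for cDNA, reads over 2 counted genes could be set aside as ambiguous, and these 6 members could lose reads. A member whose partner was not counted could instead take in cDNA reads of that partner. The part of length, strand and amplification in the kit differences was not tested.

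**Figure D5:**
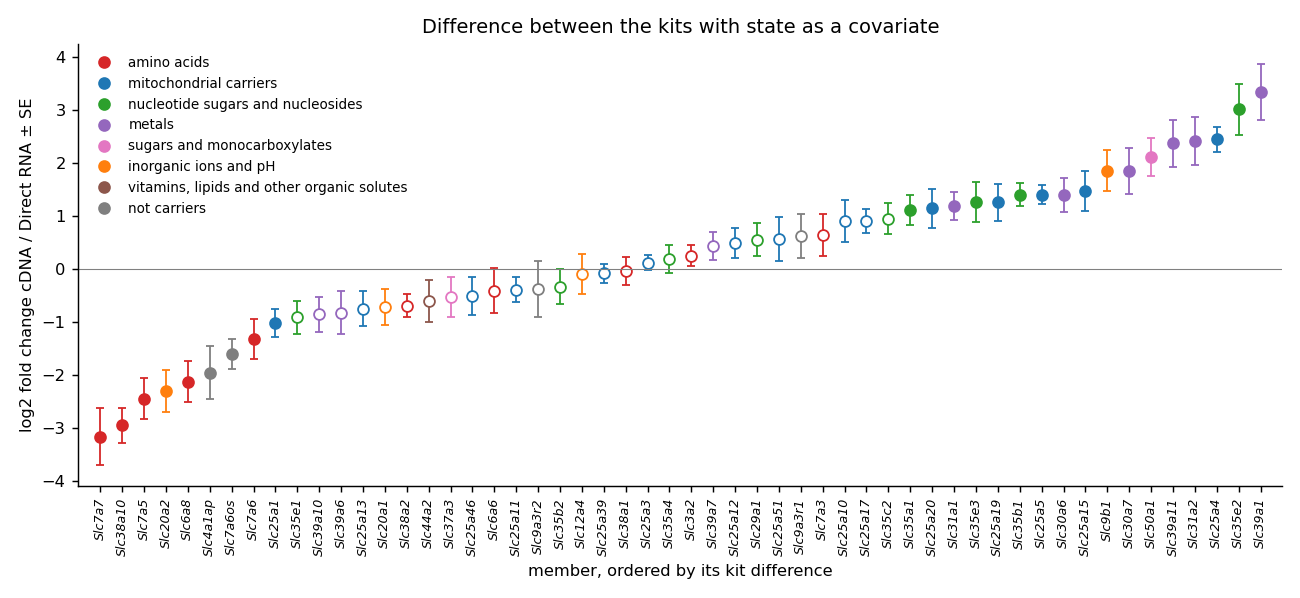
Log2 difference of cDNA over Direct RNA for the 54 members with its standard error from DESeq2, ordered by size and coloured by the solute carried, with filled points for the called members. The order runs from Slc7a7 at -3.16 to Slc39a1 at 3.33, and 5 of the 9 filled points below 0 are amino acid carriers.

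Replicates of a group differed by a median factor of 1.31 in the Undiff Direct RNA libraries, 1.36 in the Day4 Direct RNA libraries, 1.45 in the Undiff cDNA libraries and 1.30 in the Day4 cDNA libraries, taken over the CPM of the 54 members. More than 2-fold apart were 9, 8, 16 and 8 members, respectively. Several of these rest on few reads, such as Slc25a51 with 1 and 21 reads in the Undiff Direct RNA libraries, but Slc39a1 with 235 and 156 reads and Slc9a3r1 with 339 and 233 reads, 3.32 and 3.20 times apart in CPM in the Undiff cDNA libraries, do not.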

How the data were processed

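For each gene symbol the deposited files give a raw count of reads. The authors aligned the reads to mm10 with minimap2, secondary alignments off, and counted them over the UCSC iGenomes annotation with htseq-count, Direct RNA by strand. Direct RNA reads had passed through Poreplex and cDNA reads through porechop. No normalisation had been applied, and the files hold no columns beyond the counts. The 5 htseq-count counters (38.1% to 61.7% of the reads listed in a file) were left out of library sizes and tests. The counter of unaligned reads stood at 0 in replicate 1 of both cDNA states. In replicate 2 it stood at 1588520 (Undiff) and 56572 (Day4), so these percentages cannot be compared between libraries.

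Symbols were matched to GENCODE M21 (GRCm38) for 98.5% of the 24421 genes and for all 54 members. CPM are counts scaled to 1000000 reads on genes. DESeq2 1.42.0 in R 4.3.3 was run on the counts with the study's settings (shrunken fold changes, Cook's cutoff and independent filtering off), on each kit for the states and on all 8 libraries for the kit and, without shrinkage, the interaction, with p-values adjusted over all genes. The scripts were tested on simulated data. Alternatives were edgeR 4.0.16, TMM factors, reads on genes as size factors (the CPM scale), at least 10 reads in every library, fold changes without shrinkage, Cook's cutoff with independent filtering, a replicate block and leaving out each library.

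The members and the gene lists were chosen with earlier results of these data known. Members named are those called with both kits, the 5 highest and 5 lowest between kits, the 3 lowest interaction p-values, the 6 highest per kilobase, 20 fixed by role, those that are not carriers and those next to the read minimum. Of those fixed by role, 1 is not reported here. Others were named after their values were seen: Slc7a6, Slc25a11, Slc25a12, Slc25a13, Slc25a15, Slc25a17, Slc25a51, Slc35a4, Slc39a7, Slc39a10 and Slc50a1. Intervals cover counting error only, and reads of the PCR-amplified cDNA libraries are not independent molecules.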

Additional observations from a re-analysis of the deposited data

How the results depend on the processing

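Without each library in turn, the members called between the states numbered 3 to 5 with Direct RNA, 4 to 5 with cDNA and 3 to 5 with both kits, against 11, 7 and 6. Genes with at least 200 reads lost calls alike: 5.8% to 10.9% were called with Direct RNA, against 19.4% with all libraries and 5.56% to 9.26% of the members, and 9.85% to 12.7% with cDNA, against 21.3% and 7.41% to 9.26% of the members. With edgeR the members called numbered 13 with cDNA and 10 with both kits. Requiring at least 10 reads in every library took out members with few reads in either state, 8 of the 11 called with Direct RNA among them. It left 3 called of 31 tested with Direct RNA, 2 of them called without the filter, where 17.3% of the genes were called. With cDNA it left 7 of 43, 3 of them called without the filter (20.1% of the genes). It left 2 called with both kits, and 8 of 27 for the kit difference, 4 of them called without the filter (46.7% of the genes). With the replicate block they numbered 6 with Direct RNA, all lower (11.5% of the genes), 8 with cDNA (18.3%) and 4 with both kits, all lower. The Direct RNA calls not made under the block were those of Slc39a6 (adjusted p = 0.208), Slc9b1 (0.230), Slc38a2 (0.124), Slc25a13 (0.0566) and Slc44a2 (0.295). Labels do not pair the libraries: same-numbered libraries deviated together at r = 0.214 between the Direct RNA states, 0.50 between the cDNA states, 0.124 between the kits in Undiff and -0.416 at Day4, over 1395 genes. A block with the Day4 numbers crossed, added after the data were seen, left the 26 kit calls. No interaction call arose in any alternative run.

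The summed level of the members moved in each group (Undiff and Day4, Direct RNA then cDNA): without Slc25a4, the member with the most reads over all libraries, to 7362, 4839, 5915 and 4044 CPM, and with TMM-adjusted library sizes to 6345, 4358, 11178 and 10515 CPM.

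Changes of sign met only values that were not called. For the kit difference, Slc38a1 went to 0.03 with TMM factors and with edgeR, and Slc3a2 to -0.15 and Slc25a3 to -0.28 with at least 10 reads. With reads on genes as size factors, added after the data were seen, Slc3a2 went to -0.51, Slc7a3 to -0.10, Slc25a3 to -0.63, Slc9a3r1 to -0.16 and Slc29a1 to -0.16, and between the cDNA states Slc31a2 to 0.26, Slc25a3 to 0.26 and Slc35e2 to 0.34. Between the cDNA states, Slc31a2 went to 0.11, Slc25a3 to 0.12 and Slc35e2 to 0.16 with at least 10 reads, and Slc35e2 to 0.02 with TMM factors and 0.03 with edgeR. Without each library in turn, the kit difference ranged from -0.16 to 0.12 for Slc38a1, -0.19 to 0.02 for Slc25a39 and -0.79 to 0.10 for Slc9a3r2. The change between the Direct RNA states ranged from -0.09 to 0.62 for Slc38a10, -1.33 to 1.11 for Slc39a1 and -0.39 to 0.00 for Slc25a1. Between the cDNA states it ranged from -0.45 to 0.85 for Slc20a2, -0.46 to 0.31 for Slc31a2, -1.23 to 0.52 for Slc39a1, -0.32 to 0.40 for Slc39a11, -0.20 to 0.04 for Slc25a3, -0.43 to 3.26 for Slc4a1ap and -0.71 to 0.50 for Slc35e2. The cause of these shifts was not tested. Depth limits the low members: the median member had 17.0 to 51.5 reads per Direct RNA library and 31.5 to 87.5 per cDNA library.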
